A study of Mus musculus with 6 samples.

Results

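The oxygen-sensing pathway was followed through 10 genes, taken by symbol from the 48005 gene identifiers of the deposited exon table: the hypoxia-inducible factor (HIF) subunits Hif1a, Epas1 and Arnt, the prolyl hydroxylases Egln1, Egln2 and Egln3, the asparaginyl hydroxylase Hif1an, the ubiquitin ligase subunit Vhl, and the target genes Vegfa and Plod2. All 10 were found. The genes were taken by name, in a choice made with earlier results of these data known. RNA was sequenced from whole hearts of C57BL/6 mice. The 3 control hearts carried floxed Txnip and are labelled wild-type, and the 3 others carried a conditional knock-in in which the PPXY motifs of Txnip, an alpha-arrestin that binds thioredoxin, were changed to AAXA. Both groups are labelled MerCreMer, a Cre recombinase that is switched on by 4-hydroxytamoxifen, and both received 4-hydroxytamoxifen, so Cre and the drug do not separate them. The promoter that drives Cre, the age and the sex of the mice are not given in the labels, and the same control hearts also serve another series.

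When oxygen is plentiful, prolyl hydroxylases modify the HIF alpha subunits, the Vhl protein binds the hydroxylated form, and the subunit is degraded. When oxygen falls, the alpha subunits Hif1a and Epas1 persist, pair with Arnt and bind short response elements near genes of glucose breakdown, vessel growth and matrix assembly. In the heart, Vegfa from muscle cells acts on neighbouring endothelial cells, and Hif1a and Epas1 are controlled largely at the level of protein, which RNA counts do not measure.

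Promoter sequences are shown for the members that passed the gene-level test below and have an entry, since the response element core is defined by its letters. The window runs from 250 bases before to 50 bases after a start listed for the gene, in RefSeq sequence of build GRCm38.p6, written 5′ to 3′. Capitals mark the core, ACGTG or GCGTG, on either strand. Hif1an lies at chr19:44562604-44562903 on the plus strand and Arnt at chr3:95434140-95434439 on the plus strand.
Hif1an promoter: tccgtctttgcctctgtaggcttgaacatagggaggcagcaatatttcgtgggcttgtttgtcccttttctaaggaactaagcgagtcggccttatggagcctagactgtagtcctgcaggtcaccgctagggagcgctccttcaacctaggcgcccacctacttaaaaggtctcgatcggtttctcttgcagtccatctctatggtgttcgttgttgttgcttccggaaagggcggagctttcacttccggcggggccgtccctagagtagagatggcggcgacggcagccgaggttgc
Arnt promoter: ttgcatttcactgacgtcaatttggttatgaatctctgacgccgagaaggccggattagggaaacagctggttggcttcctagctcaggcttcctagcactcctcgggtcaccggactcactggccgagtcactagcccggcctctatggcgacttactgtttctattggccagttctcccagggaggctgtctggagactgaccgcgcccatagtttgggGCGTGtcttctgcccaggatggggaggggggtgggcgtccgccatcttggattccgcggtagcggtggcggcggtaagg

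The Hif1an window held no core, and the Arnt window held 1, at position 222 of 300. The 8 members with an entry had 10 promoter windows, Egln2 and Vegfa having a pair each, and 7 of the 10 windows held at least 1 core. Those 7 include windows that lie inside the gene, at chr17:46025114-46025413 in Vegfa (2 cores) and chr7:27165679-27165978 in Egln2 (1 core). The Vegfa window at the 5' end of the gene, chr17:46032328-46032627, held 0 cores. Of 32851 promoter windows in the mouse table, 43.8% held one. A match is a string of letters and not a bound site, and a window without one says nothing of elements elsewhere. Epas1 and Plod2 were not matched in the promoter table.

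The transcript segments on which the exon results turn come from the GENCODE transcripts of build GRCm38 and are written 5′ to 3′ in the direction of the gene. In Vegfa, on the minus strand, they are the 72 bases of the alternatively used exon that encodes basic, heparin-binding residues (chr17:46022277-46022348), 250 bases that are exonic solely in a transcript annotated as a retained intron (chr17:46021123-46021372), and the next coding exon of 132 bases (chr17:46020991-46021122). The capitals in the intron segment mark its last pair of bases, the splice acceptor. In Plod2, on the plus strand, the segment is the alternative exon of 63 bases (chr9:92601985-92602047) that separates the long from the short form of the enzyme.
Vegfa 72-base exon: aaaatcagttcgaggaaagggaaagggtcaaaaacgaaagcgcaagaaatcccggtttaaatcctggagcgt
Vegfa intron segment: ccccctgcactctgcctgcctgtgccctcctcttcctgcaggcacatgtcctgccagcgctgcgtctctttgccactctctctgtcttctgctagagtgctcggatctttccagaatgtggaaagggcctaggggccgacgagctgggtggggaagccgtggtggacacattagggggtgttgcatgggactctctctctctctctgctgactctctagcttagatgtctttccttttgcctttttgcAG
Vegfa 132-base exon: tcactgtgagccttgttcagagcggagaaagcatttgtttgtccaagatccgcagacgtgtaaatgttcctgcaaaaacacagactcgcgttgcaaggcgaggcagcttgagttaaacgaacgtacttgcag
Plod2 63-base exon: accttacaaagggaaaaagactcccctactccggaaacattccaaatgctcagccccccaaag

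The table gives reads per exon bin, a stretch of exon between annotated boundaries. Counts were summed over the bins of a gene and scaled to library size with TMM factors (CPM, the counts a gene has in a library of fixed size). Library totals ran from 30329004 to 30625093 in the wild-type and from 31989883 to 34016586 in the knock-in hearts. Genes were tested with edgeR, with Benjamini-Hochberg adjustment over all 13066 genes and a threshold of 0.05, and every log2 fold change is knock-in minus wild-type with its standard error (SE). At that threshold 10.8% of the genes tested were called, 881 higher (6.74%) and 534 lower (4.09%), and with upper-quartile scaling the split was 594 higher and 734 lower. Txnip itself gave 887, 939 and 886 CPM in the wild-type and 363, 751 and 670.1 CPM in the knock-in hearts (log2 fold change -0.60, SE 0.20, adjusted p = 0.0698), and these counts do not show the changed motif.

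Coverage along transcripts differed between the groups, and its values stand beside the results it touches. In 1878 long genes the log2 3'/5' count ratio, comparing the final with the initial part after the exonic length was cut into 3 equal parts, had a median of 0.76, 0.54 and 0.36 in the wild-type and -0.04, -0.17 and -0.10 in the knock-in hearts. The groups did not overlap, so this ratio and the genotype cannot be told apart. For this reason each member was also tested on its 3' bins, those centred within 1000 exonic bases of the 3' end, against the 3' bins of all other genes. The 3' counts summed to 12930522 to 13569512 per wild-type and 12776590 to 12974284 per knock-in library, and they were scaled on their own.

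Among the 10 members, Hif1an, Plod2 and Arnt rose in knock-in hearts by gene sum, by 1.87-fold, 1.59-fold and 1.39-fold, and none fell. These 3 of 10 stand against 10.8% of all genes called in either direction and 6.74% called higher. Egln1 and these 3 did not overlap between groups, all higher in the knock-in, and 16.7% of all genes were higher and 30.7% either higher or lower without overlap. The median log2 fold change was 0.21 over the members and -0.004 over all genes. On the 3' bins 7 members could be tested, and 0 passed with edgeR, where 3.34% of 8287 genes did, 1.57% higher and 1.77% lower. At an unadjusted p under 0.05 that test had 1 member, Egln3, limma-voom called 0 and DESeq2 called 1, again Egln3. Epas1, Egln1 and Hif1an end in a single long bin centred farther than that from the end. A setting chosen after seeing the data, which takes every bin reaching into those bases, called 1 of the 10, Hif1an, against 3.67% of 11500 genes. The bin of Hif1an that it takes spans 5161 of the gene's 6606 exonic bases, so this value shares most of its length with the gene sum and is no separate test of the 3' end.

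**Figure D1:**
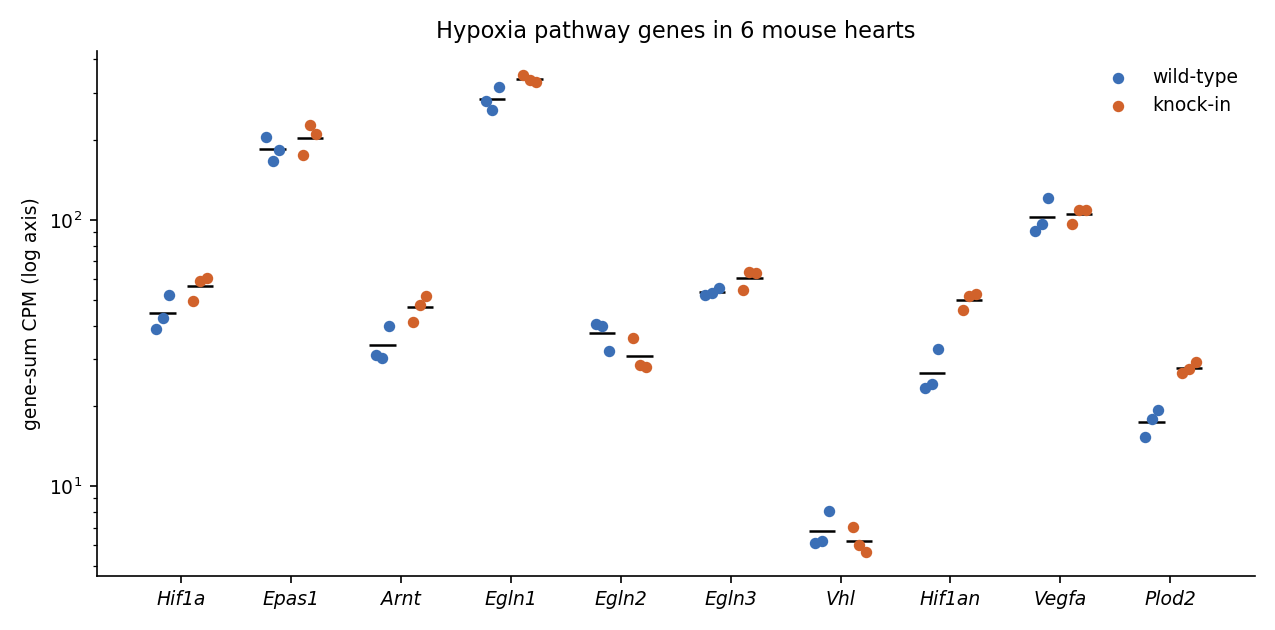
Gene-sum CPM (log axis) of the 10 genes in each of 6 hearts, wild-type in blue and knock-in in orange, with black lines at the group means. The knock-in hearts lie wholly above the wild-type hearts for Arnt, Egln1, Hif1an and Plod2, and the groups overlap for the other genes.

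**Figure D2:**
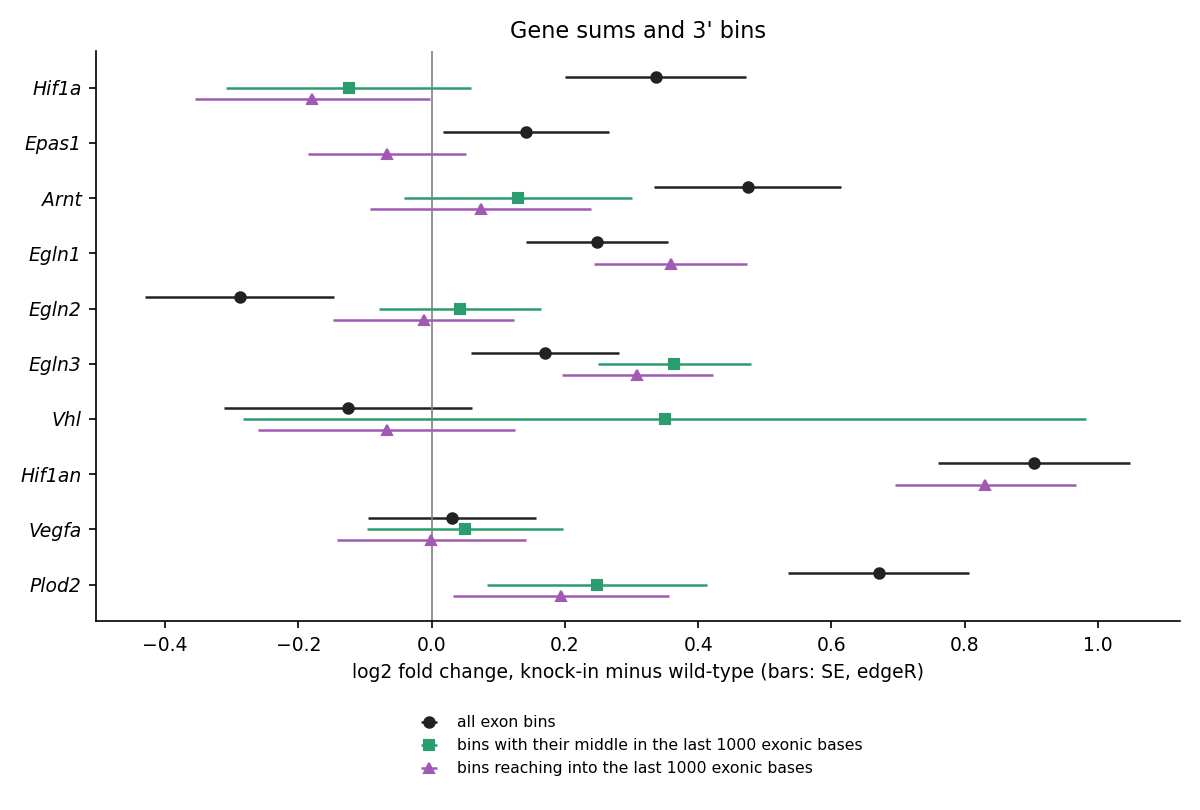
Log2 fold change (knock-in minus wild-type) with SE bars for all exon bins, for bins with their middle in the last 1000 exonic bases, and for bins reaching into them. Over reaching bins the value is 0.83 for Hif1an, 0.07 for Arnt and 0.19 for Plod2, against 0.90, 0.47 and 0.67 by gene sum, and the single reaching bin of Hif1an covers most of its gene.

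Levels were compared between genes as CPM per kilobase of exon, averaged over the 6 hearts. Egln1 stood at the top with 86.7, followed by Epas1 with 36.6, Vegfa with 24.2 and Egln3 with 21.4 CPM per kilobase. Below them came Egln2 with 12.2, Hif1a with 8.57, Hif1an with 5.81, Arnt with 5.04, Plod2 with 4.2001 and Vhl with 2.18 CPM per kilobase. The exonic length holds every annotated exon base, used or not. Retained-intron bases made up 3176 of 8007 in Arnt and 1680 of 5392 in Plod2, with 22 and 17 counts over the 6 hearts. A read over several short bins also counts in each. The order of close genes, such as Hif1an, Arnt and Plod2, therefore depends on the annotation. Epas1 was thus the more abundant alpha subunit transcript and Egln1 the most abundant hydroxylase transcript in these hearts. Neighbours in this order overlapped between hearts in 4 cases: Vegfa with Egln3, Egln2 with Hif1a and Arnt with Plod2 in the knock-in hearts, and Hif1an with Arnt in the wild-type hearts.

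Hif1a encodes the broadly expressed alpha subunit. Its gene sums were 38.8, 42.9 and 52.3 CPM in the wild-type and 49.8, 58.8 and 60.5 CPM in the knock-in group. The wild-type heart 3 lay above the lowest knock-in heart, so the groups overlapped. The log2 fold change of 0.34 (SE 0.14) did not pass (edgeR, adjusted p = 0.128), and without wild-type heart 3 it was 0.47 and passed (adjusted p = 0.0264). Hif1a on its 3' bin had 12.5, 14.2 and 17.2 CPM in the wild-type and 11.7, 11.8 and 16.7 CPM in the knock-in hearts, a log2 fold change of -0.12 (SE 0.18, edgeR adjusted p = 0.772).

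Epas1 encodes the alpha subunit that is prominent in endothelial cells. It gave 205 CPM, 166 CPM and 182 CPM in the wild-type and 175 CPM, 227 CPM and 209.6 CPM in the knock-in group. Knock-in heart 1 fell among the wild-type values, and the log2 fold change of 0.14 (SE 0.12) did not pass (edgeR, adjusted p = 0.493). Over bins reaching into the last 1000 bases it was -0.07 (adjusted p = 0.814).

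Arnt (chr3:95434388-95497240, GRCm38), the constitutive partner of both alpha subunits, gave 31.2, 30.4 and 39.8 CPM in the wild-type hearts (mean 33.8 ± 5.23, SD, n = 3) and 41.2, 47.7 and 51.9 CPM in the knock-in hearts (46.9 ± 5.396, SD, n = 3). Every knock-in heart was above every wild-type heart, though wild-type heart 3 and knock-in heart 1 were close. The log2 fold change was 0.47 (SE 0.14, edgeR adjusted p = 0.0479). The call was lost without wild-type heart 1 or 2 or knock-in heart 2 or 3 (adjusted p 0.202, 0.207, 0.161 and 0.168) and with RLE or upper-quartile scaling (0.0505 and 0.0766), and it held in 8 of 18 alternatives. Arnt on its 3' bins gave 0.13 (SE 0.17, edgeR adjusted p = 0.742).

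Egln1, which encodes the main prolyl hydroxylase acting on HIF, gave 280.1, 259 and 316 CPM in the wild-type and 351, 334 and 330.0 CPM in the knock-in group. The groups did not overlap, yet the log2 fold change of 0.25 (SE 0.11) did not pass (edgeR, adjusted p = 0.151). It was 0.35 and passed with a correction for exonic length and GC content (adjusted p = 0.0406). Over bins reaching into the last 1000 bases Egln1 gave 0.36 (adjusted p = 0.103).

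Egln2, a hydroxylase not known as a HIF target, was the member with the lowest log2 fold change by gene sum. It gave 40.6, 39.9 and 32.3 CPM in the wild-type and 35.9, 28.6 and 27.9 CPM in the knock-in hearts, and the groups overlapped through wild-type heart 3 and knock-in heart 1. The log2 fold change of -0.29 (SE 0.14) did not pass (edgeR, adjusted p = 0.209), and it was 0.06 after the correction for exonic length and GC content (adjusted p = 0.725). Its 3' bins gave 0.04 (SE 0.12, edgeR adjusted p = 0.895).

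Egln3, a hydroxylase that is itself a HIF target, gave 52.3, 53.1 and 55.4 CPM in the wild-type and 54.4, 63.6 and 63.0 CPM in the knock-in hearts by gene sum, overlapping groups with a log2 fold change of 0.17 (SE 0.11, edgeR adjusted p = 0.346). Its 3' bin holds 1675 of the gene's 2662 exonic bases, so it shares most of its length with the gene sum. Before scaling it had 983, 934 and 946 counts in the wild-type and 917, 1112 and 1240 in the knock-in hearts, which overlapped. After scaling on the 3' counts the values were 66.6, 67.7 and 72.5 CPM in the wild-type and 76.8, 92.0 and 97.2 CPM in the knock-in hearts. Here every knock-in heart was higher, by a log2 fold change of 0.36 (SE 0.11), which did not pass with edgeR (adjusted p = 0.0972). It passed with DESeq2 (adjusted p = 0.0481) and without knock-in heart 1 (log2 fold change 0.46, edgeR adjusted p = 0.0318), and its adjusted p ran from 0.0318 to 0.315 over 15 alternatives.

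Hif1an (chr19:44562850-44576274) encodes the hydroxylase known as factor inhibiting HIF, which modifies an asparagine of the alpha subunits and so hinders their binding of coactivators. It gave 23.4, 24.2 and 32.6 CPM in the wild-type hearts (26.7 ± 5.13, SD, n = 3) and 46.0, 51.6 and 52.6 CPM in the knock-in hearts (50.03 ± 3.56, SD, n = 3). The lowest knock-in heart stood well above the highest wild-type heart. The log2 fold change was 0.90 (SE 0.14, edgeR adjusted p = 0.00566), and the call held without any 1 heart, with adjusted p from 0.0005 to 0.0431. It held in 17 of 18 alternatives, from 0.79 on the highest bin to 1.44 on coding bins, and was lost once the 3' to 5' ratio entered as covariate, where the log2 fold change was 0.16 (adjusted p = 0.995). Over its 1 bin reaching into the last 1000 bases, which is most of the gene, it was 0.83 (edgeR adjusted p = 0.00841).

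Vhl, the substrate-binding subunit of the ligase that marks HIF alpha subunits, had the fewest counts, 191 to 251 per wild-type and 193 to 215 per knock-in heart. Its levels were 6.13, 6.21 and 8.07 CPM in the wild-type and 7.02, 6.02 and 5.67 CPM in the knock-in hearts, and the groups overlapped. The log2 fold change was -0.13 (SE 0.19, edgeR adjusted p = 0.705). The 3' bins of Vhl held 1 to 19 counts per heart, so the value there, 0.35 (SE 0.63), was not closely measured at this depth (edgeR adjusted p = 0.825).

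Vegfa (chr17:46016993-46032369), the vascular growth factor, gave 90.8, 96.2 and 121 CPM in the wild-type and 96.3, 109 and 109.3 CPM in the knock-in group. The knock-in values lay inside the wild-type range, and the log2 fold change was 0.03 (SE 0.13, edgeR adjusted p = 0.904). The 3' bin gave 0.05 (SE 0.15, edgeR adjusted p = 0.898). The gene-sum sign turned with upper-quartile scaling, to -0.04.

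Plod2 (chr9:92542223-92608428) encodes a lysyl hydroxylase, which prepares collagen for cross-linking and is a known HIF target. It gave 15.2, 17.8 and 19.4 CPM in the wild-type hearts (17.5 ± 2.07, SD, n = 3) and 26.6, 27.6 and 29.3 CPM in the knock-in hearts (27.8 ± 1.34, SD, n = 3). The groups were well apart, with a log2 fold change of 0.67 (SE 0.14, edgeR adjusted p = 0.0123). The call was lost without wild-type heart 1 (0.0737), wild-type heart 2 (0.0639) or knock-in heart 2 (0.0675), and on the highest bin the log2 fold change was 0.15 (adjusted p = 0.635). Its 3' bins gave 0.25 (SE 0.16, edgeR adjusted p = 0.459), with 8.26, 9.92 and 9.20 CPM in the wild-type and 10.9, 10.1 and 11.5 CPM in the knock-in hearts, which did not overlap.

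Single bins of at least 20 bases were then tested in the same way, on libraries scaled over all bins, so that a 3' bin here is set against whole transcripts and not against other 3' bins. Of 134 member bins tested, 24 were higher and 3 lower, where 8.56% of 126958 bins were called higher and 6.46% lower. Bins are numbered from the 5' end of each gene. Neighbouring bins share reads, and bins of 1 gene are not independent of each other.

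All 8 tested bins of Hif1an rose. The first bin, in the 5' part of the gene, had 14, 16 and 29 counts in the wild-type and 64, 78 and 62 in the knock-ins, with a log2 fold change of 1.59 (SE 0.27, edgeR adjusted p = 0.000855). The 6 coding bins had a median log2 fold change of 1.41. The last bin, 5161 bases up to the 3' end, had 590.0, 609 and 769 counts in the wild-type and 975, 1101 and 1153 counts in the knock-in hearts, and rose by 0.51 (SE 0.13, adjusted p = 0.0135). Its call was lost without wild-type heart 1 (0.0843), wild-type heart 2 (0.0877) or knock-in heart 2 (0.064), where 7 of the 8 bins passed.

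In Hif1a 3 of 17 bins rose, in Epas1 2 of 16, in Arnt 5 of 27 and in Plod2 6 of 21, all of them coding, and none fell. The largest were Hif1a bin 7 with 0.81 (SE 0.20, edgeR adjusted p = 0.0103), Epas1 bin 4 with 0.55 (SE 0.17, adjusted p = 0.0311), Arnt bin 14 with 1.04 (SE 0.23, adjusted p = 0.00601) and Plod2 bin 6 with 1.21 (SE 0.27, adjusted p = 0.00563). The lowest log2 fold changes were in the last long bins of 3 of them, -0.49 in Hif1a bin 23 (adjusted p = 0.0525), -0.40 in Epas1 bin 16 (0.0555) and -0.13 in Plod2 bin 27 (0.639). In Arnt the lowest was bin 4, near the 5' end (-0.32, adjusted p = 0.587), and the long bin 44 toward the 3' end had -0.25 (0.312). The bin of Hif1a passed without knock-in heart 3 (-0.67, adjusted p = 0.0273) and that of Epas1 without wild-type heart 3 (-0.46, adjusted p = 0.0244). The call of Hif1a bin 7 was lost without wild-type heart 2 (0.0537) or knock-in heart 2 (0.0757). The call of Epas1 bin 4 was lost without wild-type heart 2 (0.168), knock-in heart 2 (0.173) or knock-in heart 3 (0.0617). The numbers of higher bins also depended on single hearts. Without knock-in heart 2, and likewise without wild-type heart 2, they were 0 in Hif1a, 0 in Epas1, 1 in Arnt and 1 in Plod2. Without wild-type heart 1 they were 1, 1, 1 and 2, and without wild-type heart 3 they were 5, 3, 8 and 9.

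In Egln2 bin 4, 196 bases toward the 5' end that are not marked as coding throughout, fell. It had 87, 88 and 76 counts in the wild-type and 55, 33 and 53 in the knock-ins, with a log2 fold change of -1.03 (SE 0.23, edgeR adjusted p = 0.00529), and the call was lost without knock-in heart 2 (-0.79, adjusted p = 0.0592). No bin of Egln1, Egln3 or Vhl passed. Their extremes were 0.35 for Egln1 bin 3 (adjusted p = 0.0729), 0.35 for Egln3 bin 4 (0.174) and -0.42 for Vhl bin 9 (0.116), against -0.07 for Egln1 bin 1 (0.752), -0.29 for Egln3 bin 1 (0.211) and 0.15 for Vhl bin 5 (0.802). The highest Egln2 value was -0.22 in bin 7 (adjusted p = 0.442). Without wild-type heart 3, Egln1 bin 3 passed (0.46, adjusted p = 0.0192).

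**Figure D3:**
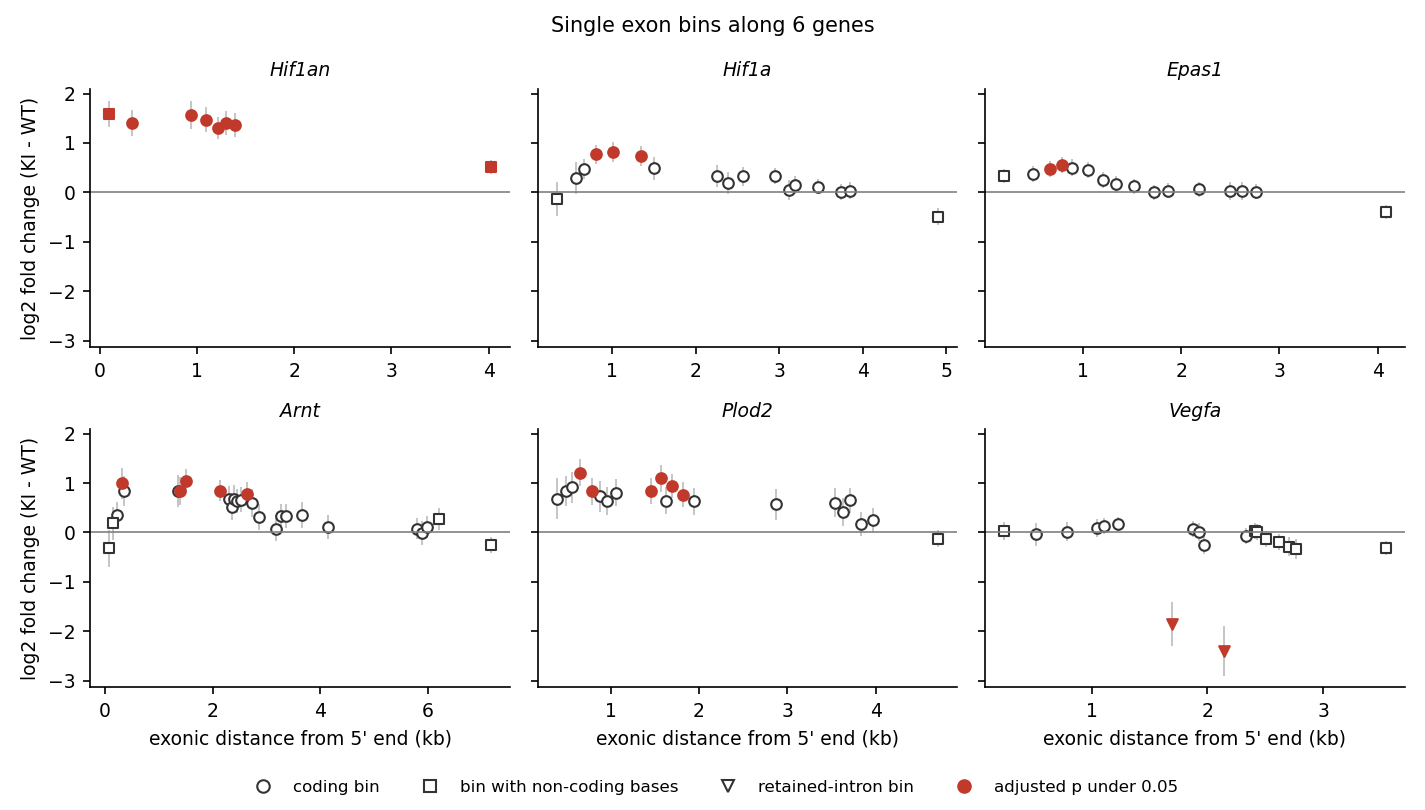
Log2 fold change (knock-in minus wild-type) with SE bars of each tested bin against exonic distance from the 5' end in kilobases, for 6 genes, with called bins in red and retained-intron bins as triangles. All 8 Hif1an bins are above 0, the last long bins of Hif1a, Epas1 and Plod2 hold their lowest values while the lowest of Arnt is near the 5' end, and the 2 called Vegfa bins are retained-intron bins.

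The ratio of 3' to 5' counts was computed for 9 members with bins centred in the first and last of the 3 parts. It was lower in the knock-in without overlap in 5 (Hif1a, Epas1, Arnt, Vegfa and Plod2) and higher in 1 (Egln2), where 40.1% of 9642 genes were lower, 3.51% higher and 43.6% either without overlap. The difference in log2 ratio was -1.07 for Hif1a, -0.69 for Epas1, -0.73 for Arnt, -0.39 for Vegfa, -0.71 for Plod2 and 0.58 for Egln2, and the median over all genes was -0.35. Each of the 6 had the smallest two-sided p that an exact permutation of 3 against 3 hearts can give, 0.1. Egln1, Egln3 and Vhl overlapped, with differences of -0.05, -0.03 and -0.08. Hif1an has no bin centred in the last part, and with 2 equal parts its log2 ratio was 2.02, 1.98 and 1.61 in the wild-type and 1.15, 0.88 and 0.85 in the knock-in hearts, without overlap (exact p = 0.1). The part of this ratio in the calls of Hif1an, Plod2 and Arnt was not tested beyond the 3' bins and the covariate.

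**Figure D4:**
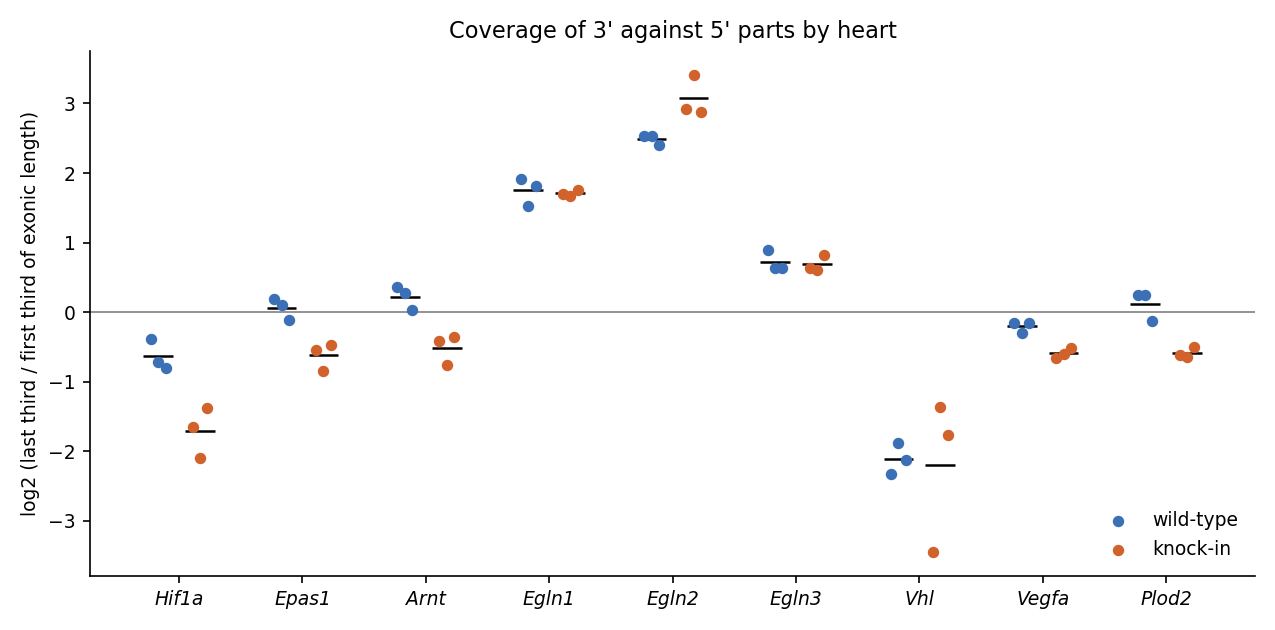
Log2 ratio of 3' to 5' counts (final against initial part, the exonic length being cut into 3 equal parts), for 9 genes in each of 6 hearts, with black lines at the group means. The knock-in hearts lie below the wild-type hearts for Hif1a, Epas1, Arnt, Vegfa and Plod2, above them for Egln2, and the groups overlap for Egln1, Egln3 and Vhl, where Vhl has 1 knock-in heart below and 2 above all wild-type hearts.

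In Vegfa no coding bin passed, the highest value being 0.17 in bin 6 (edgeR adjusted p = 0.441), and the 2 bins that fell were both exonic solely in transcripts annotated as retained introns. The 250-base segment printed above, bin 15, had 20, 15 and 12 counts in the wild-type and 1, 5 and 4 in the knock-ins, with a log2 fold change of -2.40 (SE 0.50, edgeR adjusted p = 0.00383). Its call held without any 1 heart. Bin 10, 282 bases upstream of another coding exon (chr17:46024521-46024802) and named after its value was seen, had 22, 13 and 19 counts in the wild-type and 2, 8 and 7 in the knock-in hearts, with -1.85 (SE 0.44, edgeR adjusted p = 0.00863), a call lost without wild-type heart 1 (-1.67, adjusted p = 0.062). Of 653 retained-intron bins tested over all genes, 9.34% fell, and their median log2 fold change was -0.20.

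Over all 5 retained-intron bins of Vegfa, 762 bases in all, the counts were 75, 40 and 56 in the wild-type and 4, 18 and 15 in the knock-ins, against 1149, 1268 and 1495 and 1310, 1571 and 1678 counts in coding bins. As a share of both, the retained-intron counts made up 6.13%, 3.06% and 3.61% in the wild-type and 0.304%, 1.13% and 0.886% in the knock-in hearts. The share was lower in every knock-in heart. The 5 bins include bins 10 and 15, called lower above in the same hearts, so the share and its p are no separate test. The means were 4.27% ± 1.64 and 0.774% ± 0.425 (SD, n = 3 each), a ratio of 5.51, with p = 0.1 in a two-sided exact permutation test, the smallest it can give. The 95% Wilson intervals, which cover counting error only, ran from 2.25% to 4.14% in the lowest wild-type and from 0.718% to 1.78% in the highest knock-in heart. Over all protein-coding genes the retained-intron share was 0.188%, 0.176% and 0.173% in the wild-type and 0.153%, 0.157% and 0.158% in the knock-in hearts. That share was taken against all bins of other transcripts, untranslated ones included, so its level is not comparable with that of Vegfa. The other members had too few such counts for a comparison, 14 in Hif1a, 22 in Arnt, 5 in Hif1an and 17 in Plod2 over the 6 hearts.

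**Figure D5:**
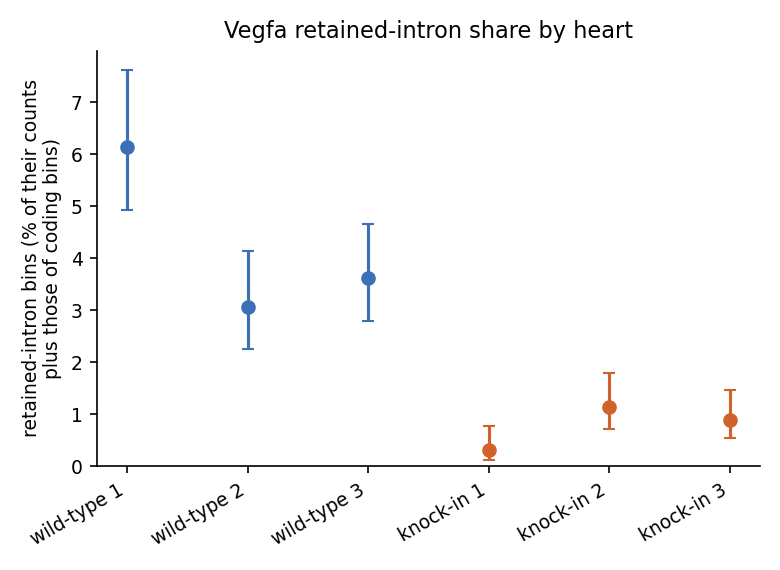
Counts in the 5 Vegfa retained-intron bins as a percent of those counts plus counts in coding bins, for each of 6 hearts, with 95% Wilson intervals. The wild-type hearts lie at 3.06% to 6.13% and the knock-in hearts at 0.304% to 1.13%.

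Alternative exons were compared as the log2 ratio of a bin's count per base to that of its nearest constitutive coding bins. Where such a bin lay on 1 side only, that side alone was used. The Arnt bins were all set against bin 8, which has 45 bases and lies in the 5' part, and the later Hif1a bins against bin 10 alone, upstream of them. In each gene these ratios share 1 reference and are not free of the coverage difference along the transcript. An annotated coding transcript ends with bin 9 in Arnt and with bin 11 in Hif1a. Later bins are missing from it for that reason, which does not make them alternatively used exons. Of 34 bins that are missing from at least 1 annotated coding transcript, 4 did not overlap between groups, in Arnt (2 bins), Hif1a and Vegfa, all with the exact permutation p of 0.1. The same share over the bins of all genes was not computed, so this count has no background and is not read as a result about the members. The ratio was repeated over the 7 bins with annotated transcripts that span the bin and flanks on both sides, a setting chosen after seeing the data, and all 7 overlapped. For the 63-base exon of Plod2 the log2 ratios were 0.41, 0.60 and -0.03 in the wild-type and 0.20, 0.21 and 0.30 in the knock-ins, with a difference of -0.09 (exact permutation p = 0.7). For the 54-base bin of the heparin-binding Vegfa exon they were -1.57, -1.51 and -1.77 in the wild-type and -1.95, -2.03 and -1.75 in the knock-ins, differing by -0.29 (exact permutation p = 0.2). That bin did not overlap by the first rule (-0.28) or against all constitutive bins of the gene (-0.36), both with the smallest exact permutation p of 0.1. For the 132-base Vegfa exon the difference was -0.10 (exact permutation p = 0.3), and -0.17 without overlap against all constitutive bins (exact permutation p = 0.1). Whether the groups of the Vegfa exons overlapped thus depended on the bins they were set against, while the Plod2 exon overlapped in all 4 settings.

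Around the members, 6 lists of other pathway genes were counted. By gene sum 11 of 95 tested genes were called (11.6%), close to the 10.8% of all genes, and on the 3' bins 3 of 73 (4.11%), where 3.34% of all genes were. The counts within single lists below stand against the same shares. Among other HIF subunits and coactivators, 2 of 9 rose and 1 fell, with a median log2 fold change of 0.37. The coactivators Ncoa2 and Ep300 rose by 1.10 (SE 0.21, edgeR adjusted p = 0.0102) and 0.83 (SE 0.23, adjusted p = 0.0369). Cited4, which binds the coactivators Ep300 and Crebbp, fell from 10.2, 8.86 and 7.91 CPM to 4.28, 2.53 and 2.68 CPM, a log2 fold change of -1.51 (SE 0.23, adjusted p = 0.00525) by gene sum and -1.28 (SE 0.19, adjusted p = 0.0034) on the 3' bins. On the 3' bins 4 genes of this list could be tested, and Ncoa2 and Ep300 were not among them. Cited4 was the 1 gene of this list called in both tests, and it held without any 1 heart. The gene-sum groups of Ep300 overlapped. The Ncoa2 call was lost without wild-type heart 1, wild-type heart 2 or knock-in heart 2 (adjusted p 0.0506, 0.0552 and 0.0615), and that of Ep300 without those or knock-in heart 3 (0.166, 0.167, 0.138 and 0.117).

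Among 15 genes of HIF ubiquitination and stability, 0 rose and 1 fell with edgeR, with a median log2 fold change of -0.02. That gene was Wsb1, a ligase subunit known to act on Vhl, with 7.45, 7.20 and 7.30 CPM in the wild-type and 4.41, 3.59 and 4.44 CPM in the knock-in hearts (log2 fold change -0.82, SE 0.18, edgeR adjusted p = 0.0166). Its call was lost without wild-type heart 1, wild-type heart 2 or knock-in heart 2 (0.0664, 0.068 and 0.0994), and on its 3' bins it had -0.73 (adjusted p = 0.214).

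Among 21 HIF targets of glucose metabolism, 4 rose and 0 fell, with a median log2 fold change of 0.16. Pdk1, the kinase that restrains pyruvate dehydrogenase, rose from 78.3, 95.8 and 110.4 CPM to 147, 151 and 159 CPM, by 0.69 (SE 0.13, edgeR adjusted p = 0.00885), and also on its 3' bins, by 0.50 (SE 0.12, adjusted p = 0.034). The others were Hk2, which phosphorylates glucose (0.58, adjusted p = 0.0384), Gys1, glycogen synthase (0.42, adjusted p = 0.0331), and Pkm, pyruvate kinase (0.35, adjusted p = 0.0398). On their 3' bins they had 0.07 (adjusted p = 0.835), 0.04 (0.891) and 0.27 (0.134), and the gene-sum groups of Hk2 overlapped. On the 3' bins 2 of 17 rose, Pdk1 and Tpi1, the second named after its call was seen. The gene-sum call of Pdk1 was lost without wild-type heart 1, wild-type heart 2 or knock-in heart 2 (0.0538, 0.0536 and 0.0544), its 3' call without those or knock-in heart 3 (0.183, 0.133, 0.114 and 0.0733), and those of Hk2, Gys1 and Pkm without wild-type heart 1 (0.183, 0.171 and 0.155), wild-type heart 2 (0.182, 0.14 and 0.178), knock-in heart 2 (0.146, 0.176 and 0.193) or knock-in heart 3 (0.134, 0.0722 and 0.0804). Upper-quartile scaling also ended the calls of Hk2, Gys1 and Pkm (0.0569, 0.0672 and 0.0996).

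Among 21 other HIF targets the median was 0.20, and Mxi1, a repressor of the Myc network, had a log2 fold change of 0.43 (SE 0.13, edgeR adjusted p = 0.0596), which did not pass. It passed with DESeq2 (0.42, adjusted p = 0.0386) and without wild-type heart 3 (0.50, edgeR adjusted p = 0.03). Kdm4b had 0.38 (edgeR adjusted p = 0.073) and passed with DESeq2 (0.0496) and without knock-in heart 1 (0.0411). Higd1a went the other way, with -0.32 (SE 0.11, edgeR adjusted p = 0.0875) and no overlap. Its fall passed without wild-type heart 3 (0.034) or knock-in heart 1 (0.0352), and its 3' bins gave 0.07 (adjusted p = 0.836). Among 13 other VEGF-family ligands, receptors and angiopoietin genes, 1 rose and 0 fell, with a median of -0.37. That gene was Angpt1, a ligand of the Tek receptor (0.89, SE 0.18, edgeR adjusted p = 0.0109), lost without wild-type heart 1, wild-type heart 2 or knock-in heart 2 (0.06, 0.066 and 0.0636). The lymphatic ligand Vegfc had a log2 fold change of -0.78 (adjusted p = 0.0511), and Vegfb had -0.44 (adjusted p = 0.0907) with overlapping groups. The receptor gene Tie1 had -0.48 (SE 0.15, edgeR adjusted p = 0.0658) without overlap, and -0.16 on its 3' bins (adjusted p = 0.59). By gene sum Tie1 passed with upper-quartile scaling (0.0407), DESeq2 (0.0262), no filter on low counts (0.00575) and without wild-type heart 3 (0.0131). Vegfc passed with RLE (0.0463) and upper-quartile scaling (0.0361), DESeq2 (0.0332), limma-voom (0.0474) and no filter on low counts (0.03). Vegfb passed with no filter (0.0115), without wild-type heart 3 (0.0163) and without knock-in heart 1 (0.0259). Among 16 genes of collagen hydroxylation and cross-linking, the group around Plod2, 0 rose and 1 fell, with a median of -0.16. Loxl1, a cross-linking oxidase, had -0.84 (SE 0.18, edgeR adjusted p = 0.0159), lost without wild-type heart 1, knock-in heart 2 or knock-in heart 3 (0.0737, 0.0598 and 0.0595), with -0.66 on its 3' bins (adjusted p = 0.111). On the 3' bins none of the tested genes of these last 3 lists passed with edgeR.

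In whole-heart RNA, fewer cells of a type and less RNA per cell cannot be told apart. Summed CPM of 8 cardiomyocyte markers ran from 67325 to 74573 in the wild-type and from 79506 to 83341 in the knock-in hearts, without overlap and with 0 of 8 called. Their median log2 fold change was 0.17 by gene sum. On the 3' bins it was -0.26 over the 7 tested, where 0 were called higher and 1, Ttn, lower. The 13 endothelial markers summed to 851 to 1229 CPM and 682 to 960.4 CPM, with 2 lower (Cldn5 and Emcn), and the 10 macrophage markers to 266 to 305 CPM and 225 to 233 CPM, with 2 lower (Lyz2 and C1qc). The ranges of fibroblast markers (1860.5 to 1949 and 1926 to 2120.1 CPM; 1 of 11 lower), smooth muscle and pericyte markers (753 to 825 and 683 to 1062 CPM; 1 higher and 3 lower of 11) and red cell and platelet markers (599 to 803 and 747 to 1405 CPM; 1 higher and 3 lower of 8) overlapped. These sums hold only marker genes that were tested, so a marker at 0 could not appear in them. Tnni3, Myl7, Egfl7 and Gp1bb were not among the genes tested by gene sum and are left out. The marker genes were named after their calls were seen. The part of these markers in the member values was not tested.

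The genes whose centred log2 CPM over the 6 hearts lay nearest to a member, by Euclidean distance among 11576 genes, were named for 5 members. For Hif1an they were Prkar2a (distance 0.139), Palld (0.155) and Kif13a (0.156), each called higher. For Plod2 they were Tcp11l2 (0.0813), Ccser2 (0.0846) and Gnl3l (0.0932), and for Arnt Ralgapb (0.0651), Anapc1 (0.0803) and Trak2 (0.0862), likewise called. The nearest to Hif1a were Tab2 (0.0497) and Hus1 (0.0709), and the nearest to Vegfa Nsmce2 (0.0786), Supt7l (0.105) and Tardbp (0.106), none of them called. Next to Hif1a came an identifier that joins overlapping genes and has no single name. Such genes have nearly the group difference of the member by the way they were chosen, so their calls add nothing to its result. The distance describes 6 values and says nothing of shared control.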

How the data were processed

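RNA from 6 mouse hearts (3 wild-type, 3 knock-in) was isolated with a column kit and made into libraries with a NEBNext kit, per the labels' protocols. The deposited table holds raw counts of reads per exon bin, which the authors did not normalize. The submitters' processing notes name GRCm38.p6 as the authors' build, and STAR, featureCounts, Subread 1.5.2 and DESeq2 as tools, with roles and settings not given in the sources used here. Totals ran from 30329004 to 34016586 counts per library. A read over several short bins is counted in each, so a gene sum is not a number of reads. Table columns were matched to samples by the library numbers in the titles, and no column was left unused. The 425461 bins fell on 48005 identifiers, of which 1194 join overlapping genes, and names came from the GENCODE annotation. Of 46606 single-gene identifiers compared, 91.4% had the same start and end there.

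Genes were filtered with filterByExpr, given TMM factors, and compared by the quasi-likelihood test of edgeR 4.0.16 (robust) under R 4.3.3, by gene sum, on bins centred within 1000 exonic bases of the 3' end, and on single bins of at least 20 bases. An SE was taken as the log2 fold change over the root of its F value. Values per heart were compared by exact permutation over 20 assignments with scipy 1.17.1, where the smallest two-sided p is 0.1. The 3' to 5' ratio added 10 counts to each part, and its background took protein-coding genes with at least 300 counts and 3 bins, the long genes being those of at least 4000 bases, 10 bins and 6000 counts. Exon ratios added 0.01 counts per base. Alternatives were DESeq2 1.42.0, limma-voom (limma 3.58.1), other scalings, filters and bins, correcting for exonic length and GC, adding that ratio to the model, and leaving out each heart. Bins reaching into the last 1000 bases, spanning transcripts and leaving out both replicates 1 were chosen after seeing the data.

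Named were all members, the bin with the highest and the lowest log2 fold change in each, up to 4 genes per list by smallest p, and the 3 nearest genes to the called members, Hif1a and Vegfa. The members and lists were chosen with earlier results of these data known. The scripts were tested on simulated data. There most 1.5-fold changes were missed, 24 being recovered by gene sum and 38 on the 3' bins. Of as many 2-fold changes 75 and 69 were recovered. A value that did not pass is therefore not shown to be unchanged. The series describes separate hearts, and p-values measure the spread between them. A result for 1 gene of the pathway lists is not reported here.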

Additional observations from a re-analysis of the deposited data

How the results depend on the processing

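No paired analysis was possible because the labels carry no replicate numbers that the groups share, and numbers here follow accession order only. Leaving out 1 heart at a time moved the genes called by gene sum from 1415 to between 164 and 2461, the members called from 3 to between 1 and 4, and the pathway genes called from 11 to between 1 and 21. For the 3' bins the ranges were 55 to 428 genes (277 with all hearts), 0 to 1 members and 1 to 4 pathway genes, and for single bins 6518 to 29006 of all bins and 11 to 43 member bins (19074 and 27 with all hearts). By gene sum 208 were called without wild-type heart 1, 260.0 without wild-type heart 2, 164 without knock-in heart 2, 432 without knock-in heart 3 and 2461 without wild-type heart 3. On the 3' bins 55 were called without wild-type heart 1, 111 without wild-type heart 2, 64 without knock-in heart 2 and 428 without knock-in heart 1.

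When the 3' to 5' ratio, whose values do not overlap between groups, entered as covariate, 3 genes and 0 members were called, and log2 fold changes turned to -0.38 for Hif1a, -0.10 for Arnt, 0.33 for Egln2, -0.048 for Egln3 and -0.63 for Vegfa. The highest bin alone gave 607 genes and 1 member, with -0.11 for Epas1 and -0.0435 for Vegfa. Vegfa also turned to -0.0434 with upper-quartile scaling, -0.0207 without both replicates 1 and -0.0202 on bins of at least 50 bases, Egln2 to 0.062 with the length and GC correction, and Vhl to 0.14 on coding bins. None of these turned values passed. On the 3' bins the genes called were 422 with bins reaching into the last 1000 bases (members 1), 429 with DESeq2 (members 1, pathway genes 6), 442 for the last 2000 and 117 for the last 500 bases, 623 without a filter (pathway genes 7) and 167 without both replicates 1. There the log2 fold change of Egln2 turned to -0.0086 without both replicates 1, -0.088 over the last 2000 bases and -0.012 with reaching bins. That of Vhl turned to -0.23 with limma-voom, -0.10 over the last 2000 bases and -0.067 with reaching bins, and that of Vegfa to -0.00028 with reaching bins. The cause was not tested.

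Signs of values that did not pass also turned when 1 heart was left out, over -0.23 to 0.018 for Vhl and -0.078 to 0.17 for Vegfa by gene sum. On the 3' bins the ranges were -0.31 to 0.011 for Hif1a, -0.060 to 0.25 for Arnt, -0.038 to 0.11 for Egln2, -0.31 to 0.88 for Vhl, -0.062 to 0.24 for Vegfa, -0.032 to 0.17 for Hk2, -0.032 to 0.19 for Higd1a, -0.25 to 0.014 for Tie1 and -0.063 to 0.0038 for Plod1. For single bins they were -0.18 to 0.016 for Egln1 bin 1 and -0.27 to 0.35 for Vhl bin 5. Alternative-exon bins without overlap numbered 12 against all constitutive bins and 0 among spanning transcripts, where 4 did so by the first rule. Member 3' to 5' ratios without overlap numbered 8 over 2 equal parts and 6 with 1 count added, where 6 did so over 3 parts. Depth limits Vhl, whose 3' bins hold at most 19 counts a heart, and the retained-intron bins of members other than Vegfa.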
